A study of Mus musculus with 14 samples.

Results

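The protein-coding promoters without a CpG island that carried H3K4me1 in mouse fibroblasts numbered 3037, out of 21938 coding promoters on the chromosomes and out of 10136 coding promoters without an island. A promoter was the 1 kb either side of the most upstream transcriptional start site (TSS) of the gene. An island was a stretch longer than 200 bp in which G and C made up 50% or more of the bases and CpG occurred at over 0.6 of its expected frequency, and these promoters had none within 1 kb of that TSS. The promoters were chosen by the measured sites themselves, that is, by at least 1 H3K4me1 site that overlapped this window, so having a site is their definition and not a result. They are called marked below, and the other 7099 promoters without an island are called unmarked. Marked promoters thus made up 30.0% of the promoters without an island (95% Wilson interval 29.1 to 30.9%), and this share is the background for all counts of gene lists and gene classes that follow.

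The ChIP-seq measurements came from NG3 cells, 1 clone of immortalized mouse embryo fibroblasts. In these cells exon 4 of the endogenous Ash2l is deleted, and a lentivirally introduced FKBP-HA2-ASH2L, human ASH2L fused to a degradable FKBP domain and HA tags, takes its place. All libraries, the untreated ones included, share this background. Cells were left untreated or received dTAG-13, the compound that sends the fusion protein to degradation, for 30 min or for 2, 4, 8 or 16 h, with 2 replicates in each of the 6 conditions, and inputs came from untreated cells and from 16 h. The table holds 160144 sites, pooled over the 12 H3K4me1 libraries, each with a chromosome, a start and an end. It gives no replicate, no time point, no depth and no height of a site. A promoter without a site therefore cannot be told apart from a promoter with too few reads. None of the values below belongs to a time point or to the loss of ASH2L. Most of the pooled libraries came from treated cells, so a site need not be present in untreated cells. The paper reports that H3K4me1 sites with increased signal after ASH2L loss lay almost only at promoters, most of them with a CpG island. Shares and profiles at promoters can include such sites, which cannot be told apart here.

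H3K4me1 is placed by KMT2 complexes, of which ASH2L is a core subunit, and is best known as the mark of enhancers and of the flanks of active promoters. Promoters with a CpG island mostly belong to genes that all cells use, and their nucleosomes near the TSS usually carry H3K4me3 instead. Promoters without an island belong more often to genes of particular cell types, such as the matrix, contractile and inflammatory genes of fibroblasts, and they rely more on TATA elements and on sequence-specific factors, among them AP-1, which binds TGANTCA, and SRF, which binds the CArG box of contractile genes.

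Marked promoters differed widely in their DNA, and the 120 bases before the TSS of 8 fibroblast genes and of Mmp12 show elements that some of them held. They were chosen after their sequences were seen. Capitals mark a TATAAA that starts 20 to 40 bases before the TSS, a TGANTCA or a CArG box, and all are written 5′ to 3′ in the direction of transcription. Mmp3, Mmp10 and Mmp13, secreted matrix proteases of the same gene cluster, lay at chr9:7445702-7445821, chr9:7502232-7502351 and chr9:7272394-7272513 on the plus strand of GRCm38.p6. Mmp12, the macrophage elastase of that cluster at chr9:7344261-7344380 on the plus strand, was unmarked and held none of the 3 elements in these bases. The calcium-binding S100a4 lay at chr3:90603651-90603770 on the plus strand. The matrix protein gene Postn lay at chr3:54360989-54361108 and the chemokine gene Ccl7 at chr11:82045592-82045711, both on the plus strand. Tagln and Actg2, which encode transgelin and a smooth muscle actin, lay at chr9:45936059-45936178 and chr6:83536266-83536385 on the minus strand.
Mmp3: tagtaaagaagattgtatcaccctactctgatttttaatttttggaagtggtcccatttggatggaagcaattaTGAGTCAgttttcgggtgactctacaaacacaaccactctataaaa
Mmp10: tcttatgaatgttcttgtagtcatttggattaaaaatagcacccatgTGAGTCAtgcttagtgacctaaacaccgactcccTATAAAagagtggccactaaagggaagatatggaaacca
Mmp13: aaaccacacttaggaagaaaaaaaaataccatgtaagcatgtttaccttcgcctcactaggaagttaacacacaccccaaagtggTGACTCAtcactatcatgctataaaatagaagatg
Mmp12: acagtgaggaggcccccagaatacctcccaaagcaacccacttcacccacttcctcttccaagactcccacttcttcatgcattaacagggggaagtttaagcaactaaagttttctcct
S100a4: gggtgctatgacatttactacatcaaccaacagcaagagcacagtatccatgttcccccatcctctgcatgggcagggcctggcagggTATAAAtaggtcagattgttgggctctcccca
Postn: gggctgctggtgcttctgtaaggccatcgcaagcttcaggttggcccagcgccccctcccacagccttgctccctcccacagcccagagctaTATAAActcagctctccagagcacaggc
Ccl7: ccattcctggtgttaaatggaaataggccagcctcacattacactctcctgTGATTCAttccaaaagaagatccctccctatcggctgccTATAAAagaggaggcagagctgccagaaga
Tagln: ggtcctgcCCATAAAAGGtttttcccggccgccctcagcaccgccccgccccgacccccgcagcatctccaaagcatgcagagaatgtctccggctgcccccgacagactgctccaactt
Actg2: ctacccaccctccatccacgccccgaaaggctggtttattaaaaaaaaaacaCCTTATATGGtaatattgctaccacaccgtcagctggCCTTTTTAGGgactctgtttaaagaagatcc

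The same bases before 4 further marked promoters show the range of CpG content, with every CpG in capitals. Has2, which makes hyaluronan, lay at chr15:56694540-56694659 on the minus strand, and Itga11, a collagen-binding integrin, at chr9:62677706-62677825 on the plus strand. Ly6c1, a surface protein, lay at chr15:75048831-75048950 and C3, the central complement component, at chr17:57228137-57228256, both on the minus strand. Has2 and Itga11 had an observed/expected CpG ratio of 0.60 and 0.46 over the 2 kb window, and Ly6c1 and C3 had 0.06 and 0.08. All 4 had a site over the TSS, which covered 1743 bp of the window at Has2, 1774 bp at Itga11, 2001 bp at Ly6c1 and 658 bp at C3.
Has2: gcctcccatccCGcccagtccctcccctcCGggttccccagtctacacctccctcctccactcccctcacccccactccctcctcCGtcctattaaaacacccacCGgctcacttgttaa
Itga11: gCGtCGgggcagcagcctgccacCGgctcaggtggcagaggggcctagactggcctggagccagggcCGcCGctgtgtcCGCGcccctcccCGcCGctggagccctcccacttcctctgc
Ly6c1: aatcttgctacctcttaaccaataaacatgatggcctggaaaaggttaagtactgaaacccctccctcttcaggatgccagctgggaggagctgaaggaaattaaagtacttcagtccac
C3: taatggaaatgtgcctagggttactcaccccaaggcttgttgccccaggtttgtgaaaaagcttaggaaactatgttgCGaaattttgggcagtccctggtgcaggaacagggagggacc

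At most marked promoters the site lay over the TSS. The TSS was inside a site at 1978 of the 3037 marked promoters (65.1%, 63.4 to 66.8%). At 549 (18.1%) sites lay only downstream, that is, in the transcribed direction, at 295 (9.71%) only upstream, and at 215 (7.08%) on both sides with a free TSS. The island promoters with a site, 10972 of 11802, had the TSS inside a site at 60.9%, a free TSS between sites at 25.5%, sites only downstream at 12.4% and sites only upstream at 1.24%. A free TSS with sites on both sides was thus less frequent at marked than at island promoters, with intervals of 6.22 to 8.05% against 24.7 to 26.3%, and a site only upstream was more frequent, with 8.71 to 10.8% against 1.05 to 1.46%. Where the TSS was free, the nearest edge lay at a median of 99 bp with sites on both sides, 240 bp with sites only downstream and 451 bp with sites only upstream.

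In 100 bp bins, coverage of marked promoters rose to a single summit just downstream of the TSS. Sites covered 62.9% of the last 100 bases before the TSS and 68.8% of the first 100 bases after it, and the summit of 70.9% lay in the bin that starts at 100 bp. Over the whole 1 kb, the upstream side was covered to 43.2% and the downstream side to 57.1%. Island promoters with a site had 2 summits, 64.9% in the bin that starts 400 bp upstream and 89.5% in the bin that starts 300 bp downstream, with 59.6% in the last 100 bases before the TSS. When genes with an island at another of their TSSs were left out, the summit of the remaining 2649 marked promoters was 71.9%.

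**Figure D1:**
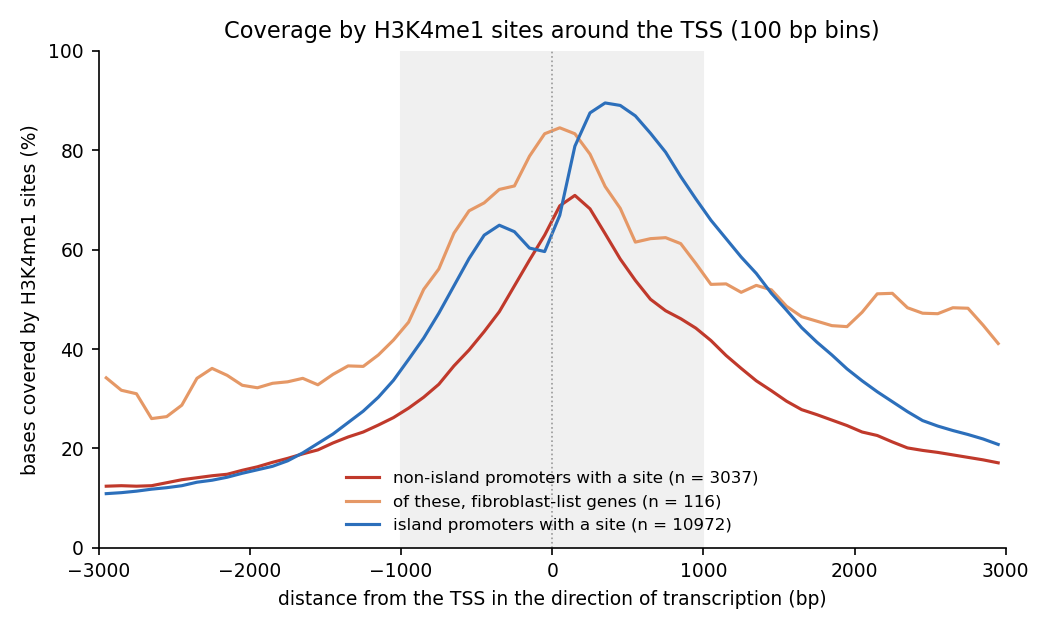
Share of bases covered by H3K4me1 sites (y axis, percent) against the distance from the TSS (x axis, bp, 100 bp bins) at marked promoters without an island, at those of the fibroblast lists and at island promoters with a site. The grey band is the window in which sites were counted, so coverage inside it is high by the choice of the promoters. Marked promoters have a single summit of 70.9% next to the TSS, and island promoters have 2 summits around a lower value at the TSS.

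The sites at marked promoters were wider than most, but a wide site reaches a window more easily than a narrow one. The choice by overlap therefore favours wide sites, here and at island promoters. The 3037 windows held 3468 distinct sites, whose width had a median of 969 bp and quartiles of 515 and 1709 bp, against 603 bp for all 160144 sites and 1316 bp for sites at island promoters. Of the 3468 sites, 165 reached the windows of 2 or more marked promoters and 71 also reached an island promoter, so neighbouring promoters are not independent observations. Sites covered a median of 963 bp of the 2001 bp window (quartiles 524 and 1440 bp), against 1399 bp at island promoters with a site. Position limits the covered length, since sites on a single side of the TSS can cover at most 1 kb of the window. The median was 1265 bp where the TSS was inside a site and 1134 bp with sites on both sides. It was 461 bp with sites only downstream and 336 bp with sites only upstream. At 214 marked promoters (7.05%) the whole window was covered, and at 144 (4.74%) less than 200 bp was. More than 1 site was present in 557 windows (18.3%), against 35.5% at island promoters with a site.

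At 128 marked promoters the widest site measured 5000 bp or more. The widest belonged to Rara, the retinoic acid receptor alpha, at chr11:98928774-98956061, with 27288 bp. It began 956 bp downstream of the most upstream TSS and covered only 45 bp of the window, and Rara has an island at another of its TSSs. Next came Lif, a cytokine of the interleukin 6 family, with a site of 14644 bp that began 928 bp downstream, behind a site of 1192 bp over the TSS. Rin1, a Ras effector, had a site of 14468 bp over its TSS at chr19:5048627-5063094. The site of Sdc4, the proteoglycan syndecan-4, measured 13640 bp and began at -205 bp from the TSS. That of Tmbim1, a membrane protein of endosomes and lysosomes, measured 12974 bp and covered its whole window. The sites of the last 3 genes lay over the TSS and reached further downstream than upstream of it.

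The limit of 1 kb cut through a continuous range of distances. The nearest site lay 997 bp from the TSS at 1700001K19Rik, 999 bp at Prss56 and 1000 bp at Gcm1, the last ones inside, and 1001 bp at Tgm7 and 1002 bp at Acsl5 and Ces2a, the first ones outside. In the last 100 bp inside the limit lay the nearest site of 72 marked promoters, and in the first 100 bp outside it that of 71 unmarked ones. The nearest island lay in the first 100 bp outside its limit at 39 promoters, of which 25 were marked.

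Genes of fibroblasts were mostly marked. Of the 133 genes on 6 lists of fibroblast genes that have no island, 116 were marked, or 87.2% (80.5 to 91.9%), against 30.0% of all promoters without an island. At 97 of the 116 the TSS was inside a site, the median covered length was 1423 bp against 963 bp for all marked promoters, and the whole window was covered at 24. On 5 lists of genes of other tissues, 36 of 149 were marked (24.2%, 18.0 to 31.6%), with a median covered length of 741 bp, and at none of the 36 was the whole window covered. Their sites lay over the TSS at 23. The lists were drawn up with results of these data known, and the counts are descriptions without a test. The coverage profile differed in the same way: at the 116 fibroblast genes sites covered 66.1% of the upstream and 69.3% of the downstream kilobase, with a summit of 84.5% in the first 100 bases, and still 34.2% and 41.1% of the bins at 3 kb on either side. These outer values were 12.4% and 17.1% for all marked promoters.

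As a check of the cell type, 6 of 8 fibroblast markers without an island were marked, namely Col1a1, Col1a2, Dcn, Fap, Postn and Pdgfrb, and all 4 with an island had a site. Of other cell types, none of 4 hepatocyte markers without an island and 1 of 6 blood markers, Csf1r, were marked. Both epithelial markers without an island, Krt8 and Krt14, were marked, and so were 2 of 4 endothelial ones, Pecam1 and Tek, and 2 of 3 of skeletal muscle. A site in the pooled set was therefore not restricted to fibroblast markers.

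Of the matrix protein genes, for collagens and other extracellular proteins, 27 of 30 were marked. The type VI collagen chain Col6a3 had a site of 11556 bp at chr1:90834100-90845655, and Emilin1, of elastic fibres, had 8539 bp. Pcolce, which assists the trimming of procollagen, had a site of 7083 bp, and all 3 windows were fully covered. The type I collagen genes Col1a1 and Col1a2 had sites of 3271 and 2606 bp over the TSS, of which that of Col1a1 lay at chr11:94933906-94937176. Dcn, the collagen-binding proteoglycan decorin, had only 370 bp, centred on the TSS. Aspn, Efemp1 and Ogn, all of them matrix protein genes, had a site only upstream, 291, 492 and 401 bp before the TSS. The other 3 genes were unmarked. The nearest site lay 1919 bp away at Col3a1, the type III collagen gene, but 81706 bp away at Loxl2, which cross-links collagen, and 85320 bp at Lum, the proteoglycan lumican.

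All 13 contractile genes without an island were marked, 10 of them over the TSS. Tagln, an actin-binding protein, had a site of 6546 bp at chr9:45930531-45937076. Myl6 and Myl9, light chains of non-muscle and smooth muscle myosin, had sites of 6900 and 2491 bp, and Lmod1, which nucleates actin filaments, had 5688 bp. These 4 windows were fully covered. At Acta2, the smooth muscle alpha actin, sites of 1270 bp over the TSS and 1155 bp downstream of it left a gap from 333 to 680 bp. Filip1l, an interactor of filamin, was the least covered, with 80 bp from 921 bp downstream, and it has an island at another TSS.

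Of the genes of matrix proteases and their inhibitors, 16 of 19 were marked, 15 over the TSS. The windows of Serpinh1, the chaperone of collagen, and Adamts4, a protease of aggrecan, were fully covered by sites of 9590 and 6076 bp. At Mmp3, Mmp10 and Mmp13 the sites were short, whereas Mmp19 had a site of 1428 bp and Mmp9 one of 890 bp over the TSS. The site of Mmp3 measured 561 bp and began at -34 bp from the TSS, and that of Mmp13 measured 340 bp and began at -95 bp. Mmp10 had a site of 413 bp that began at -75 bp and another of 516 bp upstream. Timp1, an inhibitor of these proteases, had 3 sites of 317 to 628 bp and a free TSS. Unmarked were Mmp12, with the nearest site at 8109 bp, Serpinb2 at 4865 bp and Serpine2 at 1419 bp, and Serpine2 has a site at another of its TSSs.

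**Figure D2:**
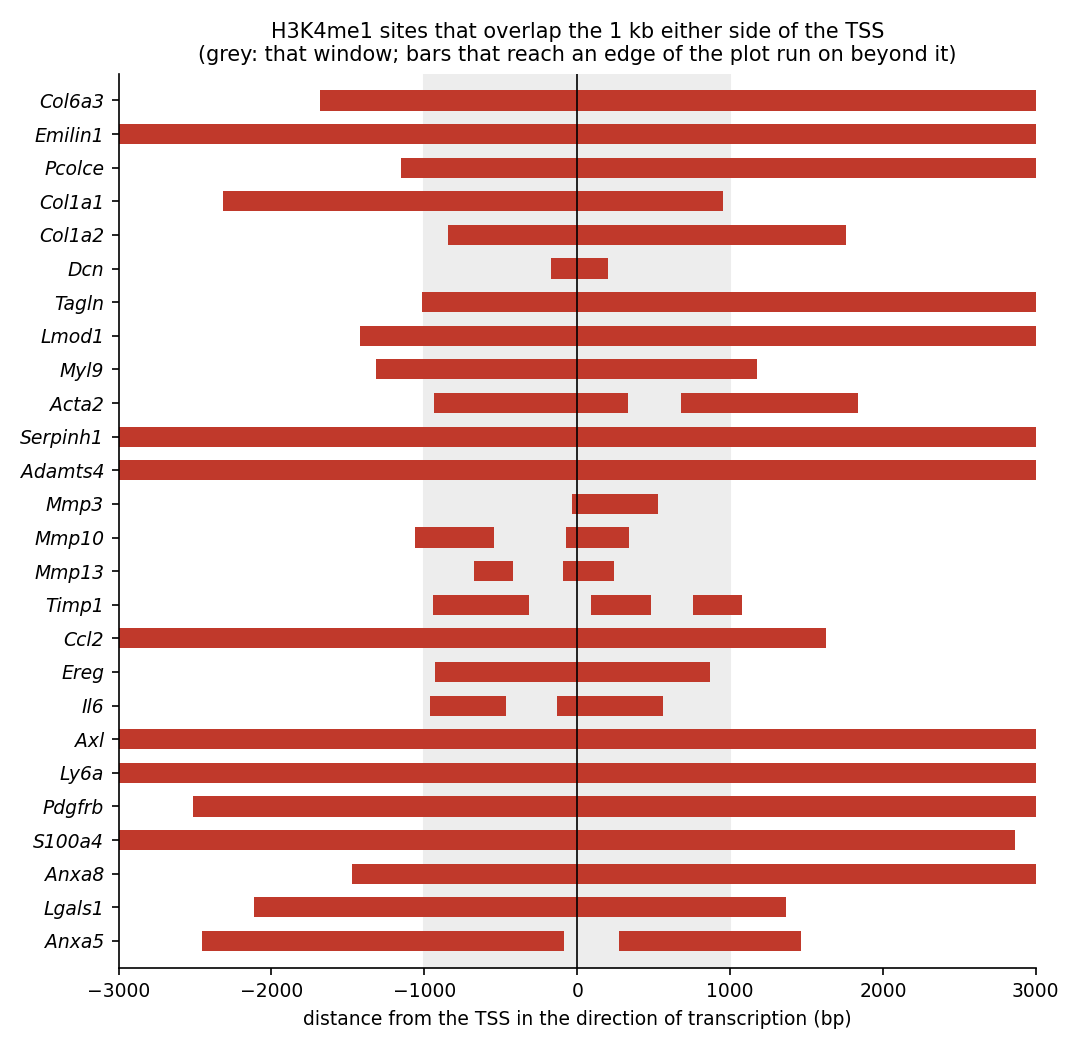
H3K4me1 sites that overlap the window (red bars) at 26 marked fibroblast genes without an island, against the distance from the TSS in the direction of transcription (x axis, bp). The grey band is the window of 1 kb either side, other sites are not drawn, and bars that reach an edge run on beyond it. The sites of Emilin1, Serpinh1 and Axl span the plot, those of Mmp3, Mmp10 and Mmp13 are short, and the TSS of Timp1 and Anxa5 is free.

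Of the cytokine, chemokine and other inflammatory genes, 28 of 35 were marked, 21 over the TSS. Ccl2, a chemokine for monocytes, had a site of 5824 bp at chr11:82031373-82037196 that covered the whole window. Ereg, an epidermal growth factor receptor ligand, had 1799 bp, and Inhba, a subunit of activin, had sites of 2908 and 1147 bp. At Il6, a pro-inflammatory interleukin, the site over the TSS measured 697 bp and another of 495 bp lay upstream. Sites of Cxcl2 and Csf3, factors of neutrophils, lay only upstream and ended 42 and 202 bp before the TSS. The unmarked 7 were Cxcl1, Fgf10, Il11, Il1rl1, Lcn2, Nos2 and Saa3. Their nearest sites lay 1359 to 25375 bp away, and 4 of the 7 have a site at another TSS of the gene.

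Of the genes of surface receptors and adhesion, 19 of 22 were marked, 18 over the TSS. The windows of Axl, a receptor tyrosine kinase, of Ly6c1, of Ly6a, known as Sca-1, and of Pdgfrb and Ddr2, receptors for platelet-derived growth factor and for collagen, were fully covered by sites of 12415, 8369, 8208, 6165 and 5116 bp. Vcam1, an adhesion receptor for leukocytes, had a site only downstream, from 49 bp after the TSS. Eng, Pdpn and Cd63 were unmarked, with the nearest site at 6820, 86113 and 4544 bp. Eng and Cd63 have a site at another TSS. Of the S100, annexin and galectin genes, 13 of 14 were marked. S100a4 had 8946 bp at chr3:90597693-90606638, the phospholipid-binding Anxa8 had 7842 bp and the galectin Lgals1 had 3484 bp, all over the whole window. At Anxa5, a further annexin, the TSS was free between sites of 2372 and 1188 bp. S100a3 was unmarked, with the nearest site at 2732 bp. Of all 17 unmarked fibroblast genes, 8 have a site at another TSS, so the choice of the most upstream TSS bears on which genes count as marked.

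Of the lists of other tissues, muscle had the highest count, with 13 of 29 marked. Troponin genes of fast and slow muscle were among them, with 1642 bp covered at Tnni1, 1524 bp at Tnnt3, 1341 bp at Tnnc2, 1051 bp at Tnni2 and 801 bp at Tnnc1, whereas the troponin genes Tnnt1, Tnnt2 and Tnni3 were unmarked, with the nearest site at 1553, 4989 and 1861 bp. Casq1, a calcium-binding protein of the sarcoplasmic reticulum, had 1473 bp. The natriuretic peptide genes Nppa and Nppb had 1525 and 1439 bp. All 7 heavy chain genes of striated muscle myosin on the list, Myh1 to Myh4 and Myh6 to Myh8, were unmarked. In liver 6 of 33 were marked, with at most 1004 bp, at the bile acid enzyme gene Cyp8b1. Alb, the albumin gene, was unmarked, with the nearest site at 6404 bp. Of lymphoid and myeloid genes 8 of 37 were marked, of which the granzyme gene Gzmb, with 1669 bp, and the integrin gene Itgax, with 1584 bp, were the most covered. Of erythroid and platelet genes 5 of 18 and of pancreas and gut genes 4 of 32 were marked.

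**Figure D3:**
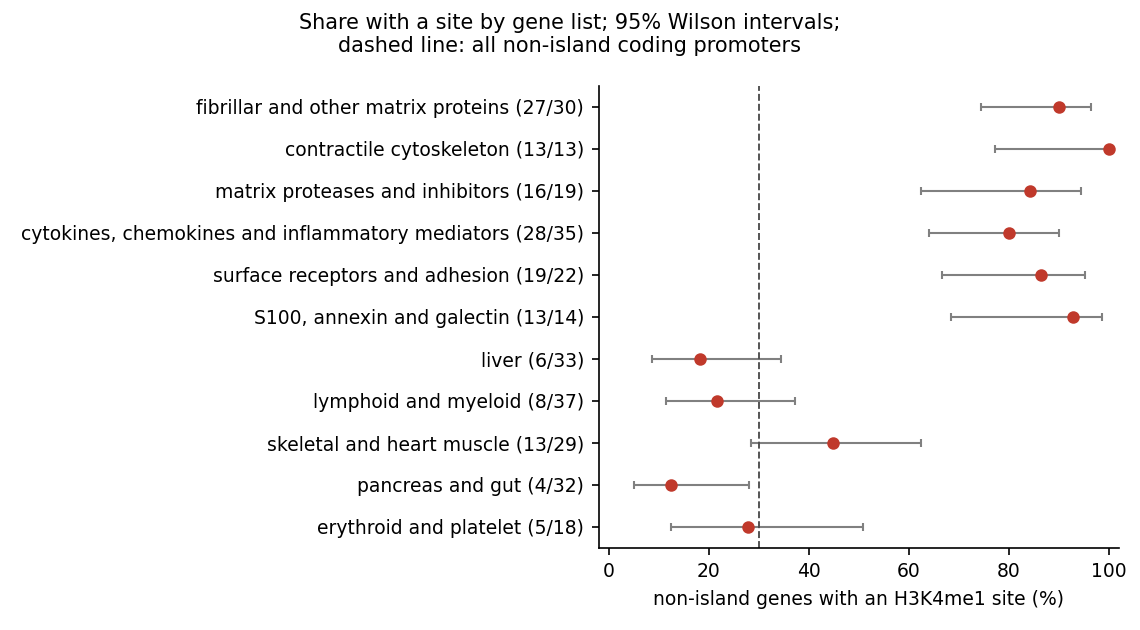
Share of genes without an island that were marked (x axis, percent, bars are 95% Wilson intervals for counting error) in 6 fibroblast lists and 5 lists of other tissues, with the number marked and the number of genes in brackets. The dashed line is the 30.0% of all promoters without an island. The fibroblast lists lie between 28 of 35 and 13 of 13, the others between 4 of 32 and 13 of 29.

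Gene classes were read from gene symbols, and 40 of 45 classes had 12 or more genes without an island. The interval of the share lay above 30.0% in 10 of the 40 and below it in 12. Among the high ones were classes that overlap the fibroblast lists, with 11 of 14 S100 genes, 18 of 27 collagen genes, 7 of 12 matrix metalloproteinase genes and 9 of 17 integrin genes marked. Chemokine genes, of which 15 of 31 were marked, overlap these lists too. Of the Zfp genes, which encode zinc finger proteins, many of them DNA-binding repressors, 104 of 163 were marked (63.8%, 56.2 to 70.8%). Of Tmem genes, named only for a transmembrane protein, 50 of 89 were marked, of genes of tumour necrosis factor ligands and receptors 12 of 20, of potassium channel genes 15 of 30 and of interferon-induced genes 24 of 51. Solute carrier genes, with 55 of 159, and keratin genes, with 15 of 50, lay near the background. The background includes sensory receptor and clone-named genes, which were seldom marked, and without them the share was 40%. The intervals of the chemokine, matrix metalloproteinase and integrin genes include 40%. So do those of the potassium channel, interferon-induced and tumour necrosis factor genes.

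Receptor genes of the nose and tongue were rarely marked. Of 1513 sensory receptor genes without an island, 24 had a site (1.59%, 1.07 to 2.35%), made up of 18 of 1135 olfactory, 5 of 328 vomeronasal and 1 of 35 bitter taste receptor genes and none of 15 trace amine-associated receptor genes. The most covered olfactory receptor genes were Olfr12 with 893 bp, Olfr1381 with 664 bp and Olfr545 with 653 bp. Among vomeronasal genes Vmn1r42 and Vmn1r43 share 1 annotated TSS and the same site, with 1754 bp covered, and Vmn1r40 had 1292 bp. Tas2r137, the only marked bitter taste receptor gene, had 421 bp. Without the sensory receptors and without clone-named genes, of which 245 of 1705 were marked, 2768 of 6918 promoters without an island were marked (38.9 to 41.2%).

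Some other families of epithelia, liver and immune cells were low as well, but not all. The intervals of interleukin genes, with 13 of 31 marked, and interleukin receptor genes, with 10 of 28, include 30.0%. So do those of C-type lectin genes, with 8 of 28, and cytochrome P450 genes, with 18 of 85. Of defensin genes, for antimicrobial peptides, 2 of 64 were marked, Defb45 with 1044 bp and Defb43 with 152 bp. Of kallikrein protease genes 2 of 26 were marked, Klk10 with 1480 bp and Klk9 with 494 bp. The 3 of 39 marked genes of the prolactin family and of pregnancy-specific glycoproteins were Prl2c3, Prl6a1 and Prl7a1, with 188 to 266 bp. Ces1g, with 299 bp, was the only one of 19 carboxylesterase genes, and Klrc1 and Klre1, with 274 and 200 bp, were 2 of 25 lectin-like receptor genes of natural killer cells. None of 10 myosin heavy chain genes and none of 8 Schlafen genes was marked, which with so few genes allows shares of up to 27.8% and 32.4%. Of 57 keratin-associated protein genes, for the hair shaft, 9 were marked. Copies within such families can be near-identical, and reads that fit several copies cannot be placed, so these counts are uncertain.

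**Figure D4:**
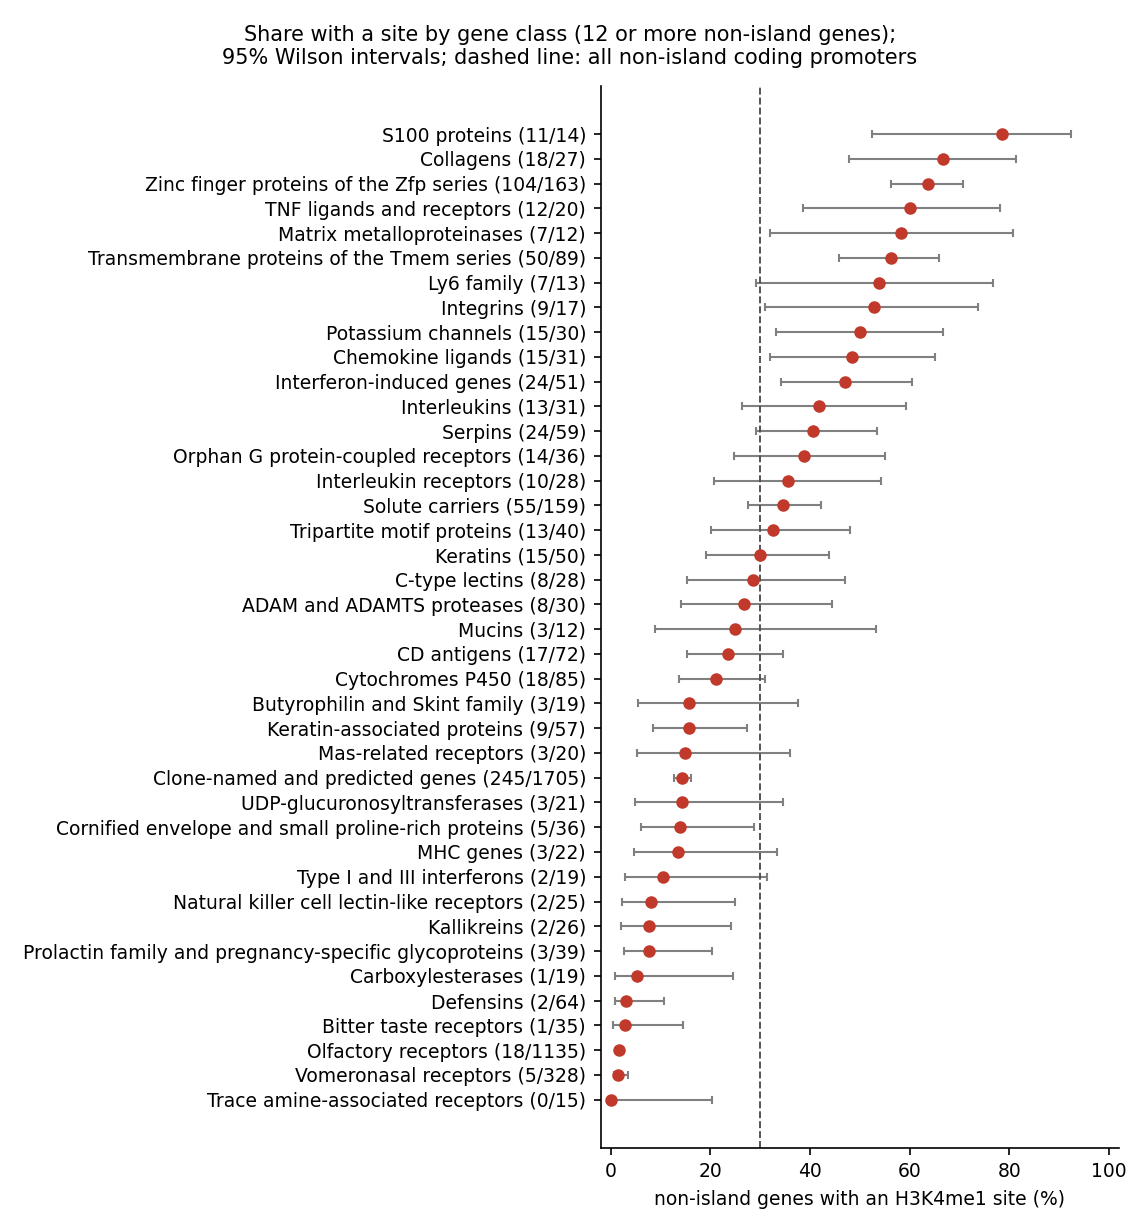
Share of genes without an island that were marked (x axis, percent, bars are 95% Wilson intervals for counting error) in 40 gene classes with 12 or more such genes, with the number marked and the number of genes in brackets. The dashed line is the 30.0% of all promoters without an island. S100, collagen and Zfp genes stand at the top and the sensory receptor classes at the bottom.

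Sequence was not used to choose among the promoters without an island, apart from the absence of an island. Marked promoters had more CpG than unmarked ones. The median ratio of observed to expected CpG in the 2 kb window was 0.296 (quartiles 0.204 and 0.403) at marked and 0.164 (0.112 and 0.241) at unmarked promoters, and 0.198 at the 4150 unmarked promoters left without sensory receptors and clone-named genes. It was 0.652 at island promoters with a site. The GC content was 48.7% at marked, 43.8% at unmarked and 46.1% at those 4150 promoters. Within the marked promoters the ratio was highest where sites lay on both sides of a free TSS, with 0.424, and lowest where they lay only upstream, with 0.217, against 0.301 where the TSS was inside a site and 0.296 with sites only downstream.

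When all promoters without an island were put into quintiles by this ratio, the share with a site was 6.36%, 14.8%, 27.1%, 37.2% and 64.5% from the lowest to the highest quintile, and no intervals overlapped. The median covered length of the marked ones went from 617 to 1137 bp. Without sensory receptors and clone-named genes the shares were 12.6%, 23.5%, 32.4%, 40.7% and 67.7%. With no island within 5 kb or at another TSS they were 6.02%, 12.4%, 24.7%, 35.4% and 63.8%. In each of the 3 sets the share was higher in every quintile than in the one below.

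The named gene groups did not all follow this order. In the fibroblast lists 5 of 6, 15 of 22, 28 of 31, 35 of 38 and 33 of 36 genes were marked from the lowest to the highest quintile, so that 68.2% or more were marked in every quintile. In the lists of other tissues the counts were 4 of 17, 8 of 32, 12 of 49, 9 of 39 and 3 of 12, and the lowest of these shares was 23.1%. The Zfp genes differed from both, with 0 of 4, 0 of 11, 3 of 21, 36 of 55 and 65 of 72, that is, 90.3% in the highest quintile. Their median ratio was 0.35 when marked and 0.22 when not, whereas that of fibroblast genes was 0.26 and 0.17 and that of genes of other tissues 0.19 and 0.20. Zfp790 and Zfp579, with 2001 and 1810 bp covered, were the most covered Zfp genes.

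**Figure D5:**
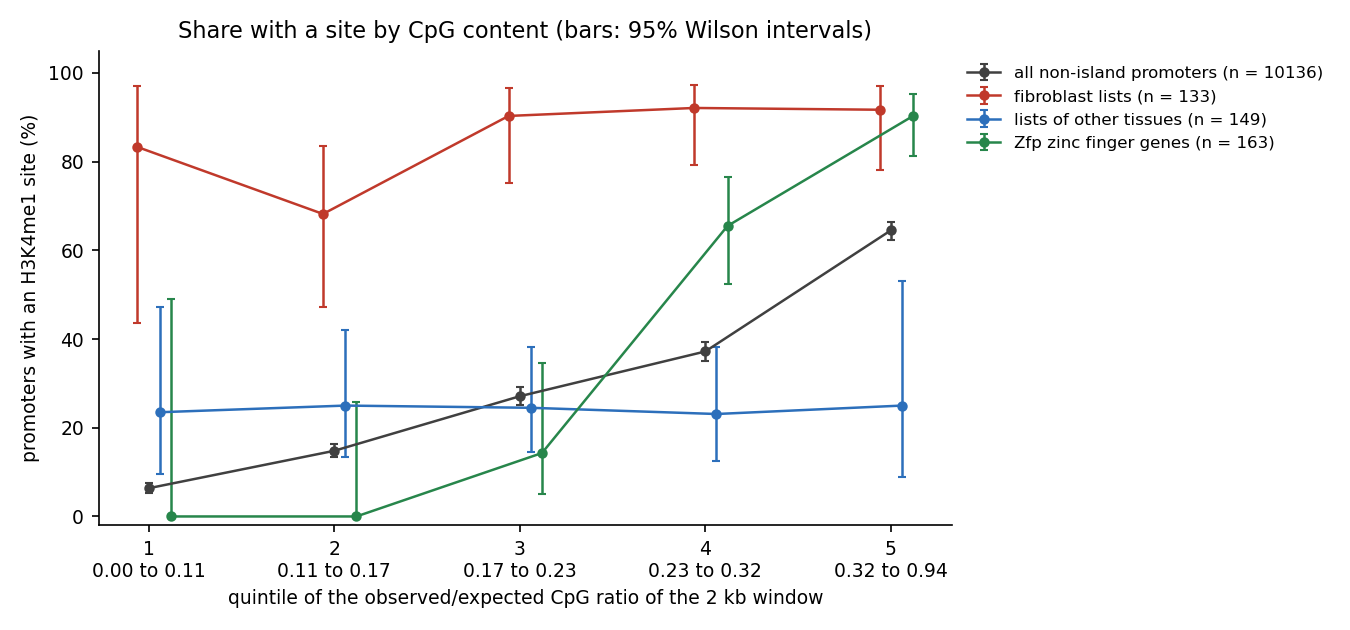
Share of promoters without an island that were marked (y axis, percent, bars are 95% Wilson intervals for counting error) by quintile of the observed/expected CpG ratio of the 2 kb window (x axis, range of each quintile below its number), for all promoters, the fibroblast lists, the lists of other tissues and the Zfp genes. All promoters go from 6.36% to 64.5%, the fibroblast lists stay at 68.2% or more, the other lists near 9 of 39 in every quintile, and the Zfp genes go from 0 to 90.3%.

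Short elements were counted in the 250 bases before to 50 after the TSS, on both strands unless stated. GGGCGG, the core of GC boxes, was present in 29.0% of marked, 8.64% of unmarked and 43.0% of all coding promoters. At the 4150 unmarked promoters without sensory receptors and clone-named genes its share was 12.5%. GGGCGG contains a CpG itself, so this difference is not independent of that in CpG. TGANTCA was present in 365 of 3037 marked (10.9 to 13.2%), 9.71% of unmarked (9.04 to 10.4%) and 6.91% of all coding promoters, and in 19 of the 116 marked fibroblast promoters (16.4%, 10.7 to 24.2%). TATAAA, read only in the direction of transcription and starting 20 to 40 bases before the TSS, was less frequent in marked than in unmarked promoters. It was found in 3.06% of marked, 4.75% of unmarked, 5.69% of those 4150 and 2.42% of all coding promoters. It was present in 10 of the 116 marked fibroblast promoters (8.62%, 4.75 to 15.1%), among them those of Ccl7, Icam1, Mmp10, Postn and S100a4. The CArG box was found in 1.94% of marked, 1.80% of unmarked, 1.48% of all coding and 6 of the 116 marked fibroblast promoters. Among those 4150 unmarked promoters TGANTCA was present in 9.23% and the CArG box in 2.07%.

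CANNTG was less frequent in marked than in unmarked promoters, and for CCAAT this depended on the unmarked set. CCAAT was present in 37.8% of marked (36.1 to 39.5%), 41.8% of unmarked (40.6 to 42.9%) and 39.0% of all coding promoters. At the 4150 unmarked promoters without sensory receptors and clone-named genes it was 40% (38.5 to 41.5%), which overlaps the interval of marked promoters. CANNTG, the E box, was present in 74.7% of marked (73.1 to 76.2%), 81.1% of unmarked (80.1 to 82.0%), 80.6% of those 4150 and 70.0% of all coding promoters. GGAATG, bound by TEAD factors, was present in 17.2% of marked (15.9 to 18.6%), 15.7% of unmarked (14.9 to 16.5%), 16.1% of those 4150 and 13.5% of all coding promoters. For GGAATG the intervals of marked and unmarked promoters overlapped. A TATAAA or a CCAAT can lie within a CArG box, and the other elements do not contain each other. Such matches are letters in a window and not sites of binding.

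Marked promoters also had more sites around them, measured outside the window that chose them. The nearest site outside the window was at a median of 3961 bp (quartiles 1983 and 8977 bp) from the TSS. The median was 23435 bp at 6917 of the 7099 unmarked promoters. It was 10942 bp at 4133 of the 4150 unmarked ones without sensory receptors and clone-named genes, and 3492 bp at island promoters with a site. The Y chromosome has no site, so its unmarked promoters have no such distance and were left out. Within 50 kb there were a median of 10 further sites at marked, 2 at unmarked and 10 at island promoters with a site, and 4 at those 4150. The marked fibroblast genes had 15 and the marked Zfp genes 4. The nearest island was 30107 bp away at marked, 94146 bp away at unmarked and 52042 bp away at those 4150 promoters. An island lay within 5 kb at 14.6% of marked and 6.69% of unmarked promoters, and at another TSS of the gene at 12.8% and 6.89%. Another coding TSS lay within 1 kb at 7.44% and 2.47%. Marked genes were longer, with a median of 17018 bp against 8684 bp at unmarked and 13363 bp at those 4150 promoters, and had 4 annotated transcripts against 2 in both. The part of island proximity, gene length and local density of sites in the difference was not tested. Without genes that have an island within 5 kb or at another TSS, the share with a site was 27.5% in place of 30.0%. This share does not measure how marked and unmarked promoters differ.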

How the data were processed

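The H3K4me1 table holds positions in bases. Per the paper's methods and the labels, the deposited peaks are broad MACS2 peaks, pooled over all samples. Reads had been trimmed (Trim Galore) and mapped to mm10 (BWA), then filtered (SAMtools), and replicates were merged (Picard). Versions and thresholds are not given in the sources used here. The table gives no depth.

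TSSs came from GENCODE M21 and sequence from GRCm38.p6. The 13 mitochondrial coding genes were left out. The 16099 CpG islands were called where repeats were masked, by a running score that added 17 at each CpG and -1 at any other base. A site counted when it overlapped the window by at least 1 base. Coordinates are counted from 1. Python 3.11.15, numpy 2.4.6, pandas 2.3.3, scipy 1.17.1, numba 0.67.0 and matplotlib 3.10.9 were used.

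Intervals are 95% Wilson intervals, cover counting error only and treat neighbouring promoters as independent. No test was made. The promoters, gene lists and classes were chosen with earlier results of these data known. The genes named are the most covered and the unmarked ones of each list, up to 6 a list, the 5 with the widest site, the 3 nearest to the 1 kb limit on either side and up to 5 marked genes of classes under 10%. All others were chosen after their values were seen. 4 list symbols matched no coding gene. Changed sites could not be tested for any time point, since this needs counts.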

Additional observations from a re-analysis of the deposited data

How the results depend on the processing

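No paired analysis was possible because sites are pooled without values for single libraries. For the same reason no replicate could be left out, and the planned edgeR test of changed sites was not run. There were 11 alternatives listed at the outset and 1 that was chosen after seeing the data, and 50 of 70 values stayed within the interval of the main value, within 1.5 times the number of marked promoters or within 1 SD of the covered length. Islands of at least 500 bp moved the definition itself, to 6530 marked promoters and a share of 46.5%, since many island promoters then counted as having none. The share of promoters without an island that were marked, 30.0%, became 28.5% with a 500 bp window and also with an overlap of at least 200 bp, 33.8% with a 2 kb window, 28.6% with no island at any TSS, 33.1% without clone-named genes, 29.0% with islands on unmasked sequence, 24.9% with sites of at least 500 bp, 31.2% on autosomes, 28.1% with no island within 5 kb and 27.5% with none within 5 kb or at another TSS, the alternative added later. The share with the TSS inside a site, 65.1%, became 73.0% with a 500 bp window, 56.9% with a 2 kb window, 68.9% with sites of at least 500 bp, 71.1% with sites within 1 kb merged, 68.4% with an overlap of at least 200 bp and 67.0% with no island within 5 kb. With sites of at least 500 bp, 79.7% of the fibroblast genes and 0.661% of the sensory receptor genes were marked, the lowest values of each under the alternatives run. No value depended on depth in a way that could be measured, since the table gives none.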

Other observations

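The share of promoters without an island that were marked differed between chromosomes. It was 31.2% (30.3 to 32.2%) on the autosomes, with the highest value of 43.4% on chromosome 3 and the lowest of 22.4% on chromosome 7, where 264 of 1180 were marked. On the X chromosome 125 of 623 were marked (20.1%, 17.1 to 23.4%). These shares include sensory receptor genes (1.59% marked) and clone-named genes (14.4% marked), whose number on each chromosome was not taken into account. The table holds no site on the Y chromosome, and all of its 182 coding promoters without an island were unmarked.

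Among the 7099 unmarked promoters, 785 (11.1%, 10.3 to 11.8%) belonged to genes with a site at another of their TSSs. Of 877 genes without an island at the most upstream TSS but with one at another, 388 were marked there (44.2%, 41.0 to 47.5%), against 2649 of 9259 (28.6%) of genes with no island at any TSS.

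Keratin genes, which encode the intermediate filaments of epithelia, were marked at 15 of 50. Krt80 had a site of 10559 bp that covered its whole window, Krt13 had 1705 bp covered, Krt19 1633 bp, Krt7 1372 bp and Krt16 1232 bp. Krt7 and Krt19 have an island at another TSS.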
